A study of Mus musculus with 6 samples.

Results

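The 9 genes examined here, Elf5, Kit, Aldh1a3, Ehf, Elf3, Foxc1, Mfge8, Cyp24a1 and Rspo1, are genes of mammary luminal progenitor cells, taken by name from a list. All 9 of the 9 were measured, each by 1 probe set with a single gene symbol, among 22180 named genes in all. Expression was measured on 6 single-channel Affymetrix arrays. The cells were mouse mammary stem cells kept as organoids, that is, epithelial cultures that grow in 3 dimensions. Of these, 3 arrays were from Mll3-null cells and 3 from wild-type (WT) cells. Both groups came from mammary stem cell lines generated by CRISPR, per the series' design text, and the question was the effect of losing MLL3 in them. The mouse strain, the age of the donor animals, the altered part of the gene and the number of clones behind each group are not stated in the labels used here. The labels call the arrays biological replicates without saying whether they are separate lines or separate cultures, so p-values measure only the spread between these samples. Values per array are given in the order of replicates 1, 2 and 3.

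MLL3, encoded by Kmt2c, is an enzyme that monomethylates lysine 4 of histone H3, a mark of enhancers. The mammary epithelium has an outer basal layer and an inner luminal layer, and the luminal layer holds hormone-sensing cells and progenitors that give rise to the milk-secreting alveoli. Luminal progenitors are known by the transcription factor ELF5, which acts downstream of prolactin in alveolar development, by the receptor tyrosine kinase KIT on their surface and by aldehyde dehydrogenase activity, to which ALDH1A3 contributes. The other genes encode epithelial or developmental transcription factors (Ehf, Elf3, Foxc1), a secreted glycoprotein of milk fat globules (Mfge8), an enzyme of vitamin D breakdown (Cyp24a1) and a secreted amplifier of Wnt signalling (Rspo1).

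The luminal progenitor genes did not separate Mll3-null from WT cells, but Elf5 and Kit differed widely between arrays of the same genotype. Both stood highest in Mll3-null replicates 2 and 3, intermediate in WT replicates 1 and 3, and lowest in Mll3-null replicate 1 and WT replicate 2. None of the 9 genes passed the test across all genes (limma, Benjamini-Hochberg adjusted p from 0.84 to 0.98), where 0% of the 22180 genes were called higher and 0% lower. Of the 9 genes, 0 had an unadjusted p under 0.05, against 4.93% of all genes. With array weights, which let noisier arrays count less, 2 of the 9 did, Kit at 0.036 and Elf3 at 0.018, against 11.3% of all genes, and both had an adjusted p of 0.43 by limma. The weighted Mll3-null mean rests largely on replicate 2, with a weight of 2.75, against 0.641 for replicate 1 and 0.518 for replicate 3. Groups without overlap were found for 0 of the 9, against 10.7% of all genes. The Mll3-null mean was the higher for 5 of the 9 and the lower for 4, where 51.5% of all genes had the higher mean in Mll3-null cells, with a median log2 difference of 0.31, against a median of 0.01 over all genes.

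Array medians ran from 4.35 to 4.40 on the log2 scale, and precision is limited by how few arrays there are. Mll3-null replicate 3 stood apart from the rest: it was over 1 log2 unit above every other array for 123 genes and as far below for 294, where no other array exceeded 33 and 24. The targeted gene Kmt2c was at 5.84, 6.42 and 6.07 on the Mll3-null arrays, against 6.63, 5.58 and 5.82 on the WT arrays (log2). Its groups overlapped, and the position of its probe set relative to the edit is not known here, so this level does not check the labels. In bulk RNA, fewer cells of a type and less RNA per cell cannot be told apart.

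Elf5 and the receptor gene Kit had the widest spread of the 9, and with Elf3 and Mfge8 they are the members with 2 of the 3 Mll3-null arrays above every WT array. The promoter sequences of these 4 genes are shown because their levels were high on the same arrays and because Elf5 and Elf3 encode ETS-family factors, which bind a GGAA core. Each runs from 250 bases before to 50 after the annotated gene start, 5′ to 3′ on the gene's strand, from RefSeq (GRCm38.p6). Capitals mark GGAA, or TTCC where the core is on the opposite strand. The windows are chr2:103411848-103412147 (plus strand) for Elf5, chr5:75574737-75575036 (plus) for Kit, chr1:135258423-135258722 (minus) for Elf3 and chr7:79149011-79149310 (minus) for Mfge8. RefSeq has 2 starts for Elf5 and 2 for Kit, of which the one with the lower coordinate is shown, and the other windows are chr2:103423818-103424117 for Elf5 and chr5:75574741-75575040 for Kit.
Elf5: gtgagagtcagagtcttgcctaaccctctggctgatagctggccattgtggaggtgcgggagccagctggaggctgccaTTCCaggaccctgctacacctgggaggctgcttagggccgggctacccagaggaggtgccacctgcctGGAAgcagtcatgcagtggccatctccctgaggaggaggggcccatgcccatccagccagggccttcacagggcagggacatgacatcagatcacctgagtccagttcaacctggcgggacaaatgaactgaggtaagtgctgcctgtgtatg
Kit: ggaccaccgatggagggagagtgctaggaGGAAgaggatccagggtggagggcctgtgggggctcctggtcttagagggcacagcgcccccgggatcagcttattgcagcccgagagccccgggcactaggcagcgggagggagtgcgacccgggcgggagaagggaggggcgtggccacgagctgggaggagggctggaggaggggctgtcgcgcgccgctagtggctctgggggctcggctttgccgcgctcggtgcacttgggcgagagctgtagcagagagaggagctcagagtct
Elf3: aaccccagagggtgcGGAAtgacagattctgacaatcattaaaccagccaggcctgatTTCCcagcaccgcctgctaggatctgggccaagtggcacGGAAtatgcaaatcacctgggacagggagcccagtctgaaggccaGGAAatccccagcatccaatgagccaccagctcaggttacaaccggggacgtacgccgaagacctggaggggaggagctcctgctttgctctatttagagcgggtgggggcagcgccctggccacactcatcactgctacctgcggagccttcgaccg
Mfge8: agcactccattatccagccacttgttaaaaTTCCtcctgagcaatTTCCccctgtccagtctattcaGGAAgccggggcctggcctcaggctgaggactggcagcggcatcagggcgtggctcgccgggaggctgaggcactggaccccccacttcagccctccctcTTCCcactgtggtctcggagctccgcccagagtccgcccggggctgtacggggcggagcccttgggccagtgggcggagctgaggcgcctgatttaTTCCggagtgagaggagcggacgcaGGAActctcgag

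The GGAA core was matched 2 times in the window of Elf5, 1 time in that of Kit, 4 times in that of Elf3 and 6 times in that of Mfge8. The windows of the other starts of Elf5 and Kit hold 1 match each. Of 32544 such promoter windows, 96.0% hold it on either strand, so its presence sets none of these genes apart. The longer form AGGAAG, which contains the core, was in the windows of Kit and Mfge8 and in 35.1% of all windows, and CCGGAA, which also contains it, was in that of Mfge8 and in 15.0% of all. The motif TTCNNNGAA, bound by STAT5, reads the same on both strands and was in none of the 4, against 8.33% of all windows. These are letter matches, not sites of binding. RefSeq windows were matched for 6 of the 9 genes, and those of Aldh1a3, Ehf and Cyp24a1 were not. The window of Foxc1, not printed, held both AGGAAG and CCGGAA, and that of Rspo1, also not printed, held neither.

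Among the transcription factors, Elf5 (probe set 17373739, chromosome 2) was at 6.59, 8.51 and 9.02 on the Mll3-null arrays, against 7.64, 6.0 and 7.39 on the WT arrays (log2 expression). Replicates 2 and 3 of the Mll3-null group lay above every WT array, while Mll3-null replicate 1 lay inside the WT range. The group means were 8.04 ± 1.28 in Mll3-null and 7.01 ± 0.88 in WT cells (SD, n = 3 each), a log2 difference of 1.02 ± 0.71 (SE, 95% interval -0.67 to 2.72, adjusted p = 0.84 by limma). On the linear scale this is a 2.03-fold higher mean, with an interval from 0.627-fold to 6.6-fold, so the direction is not settled, and the difference was 0.52 without WT replicate 2. Within the Mll3-null group alone Elf5 ranged over 2.43 log2 units, more than the difference between the groups, and over all 6 arrays it ranged 8.09-fold. Its standard deviation within groups, 1.10, was larger than that of 99.0% of all genes.

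Elf3 (probe set 17227266, chromosome 1), an ETS factor of epithelia, had the smallest p of the 9. It was at 5.60, 6.54 and 6.92 on the Mll3-null arrays, against 5.76, 5.56 and 5.72 on the WT arrays. The WT arrays lay within 0.21 of each other and Mll3-null replicate 1 lay among them, while Mll3-null replicates 2 and 3 were higher. The log2 difference was 0.67 ± 0.32 (SE, 95% interval -0.09 to 1.44), with an unadjusted p of 0.076 and an adjusted p of 0.84 by limma. Expressed genes of chromosome 1 (mean log2 value over 6) had a median 0.30 above the 6-array median on the array of Mll3-null replicate 3, 0.091 on that of replicate 2 and -0.061 on that of replicate 1. With each array's chromosome median subtracted, the difference of Elf3 was 0.53 ± 0.25 (SE). Tnfrsf11a and Lgr6, given below, are on chromosome 1 too. Expressed genes of chromosome 10, which holds Kitl, Dusp6 and Esr1, had a median 0.22 above the 6-array median on the array of WT replicate 1. The differences given below for these genes are without such a subtraction.

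Ehf (probe set 17388774), another epithelial ETS factor, is the gene next to Elf5 on chromosome 2 in the GRCm38.p6 annotation, but its levels did not follow those of Elf5. It was at 8.18, 8.76 and 8.30 on the Mll3-null arrays, against 8.58, 8.42 and 8.37 on the WT arrays. All 6 arrays lay within 0.58 log2 units, and the difference was -0.05 ± 0.17 (SE, 95% interval -0.44 to 0.35). The interval leaves room for a fold difference between 0.735 and 1.27. Mll3-null replicate 2 was the highest array for Ehf, and Mll3-null replicate 1 the lowest.

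Foxc1 (probe set 17286340, chromosome 13), a forkhead factor, ran opposite to Elf5 on the arrays at either end. It was at 8.34, 8.74 and 7.54 on the Mll3-null arrays, against 8.33, 9.22 and 8.33 on the WT arrays. WT replicate 2, the lowest array for Elf5, was the highest for Foxc1, and Mll3-null replicate 3, the highest for Elf5, was the lowest. The log2 difference was -0.42 ± 0.37 (SE, 95% interval -1.31 to 0.47), and it was -0.08 without Mll3-null replicate 3, -0.12 without WT replicate 2 and -0.05 with array weights.

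**Figure D1:**
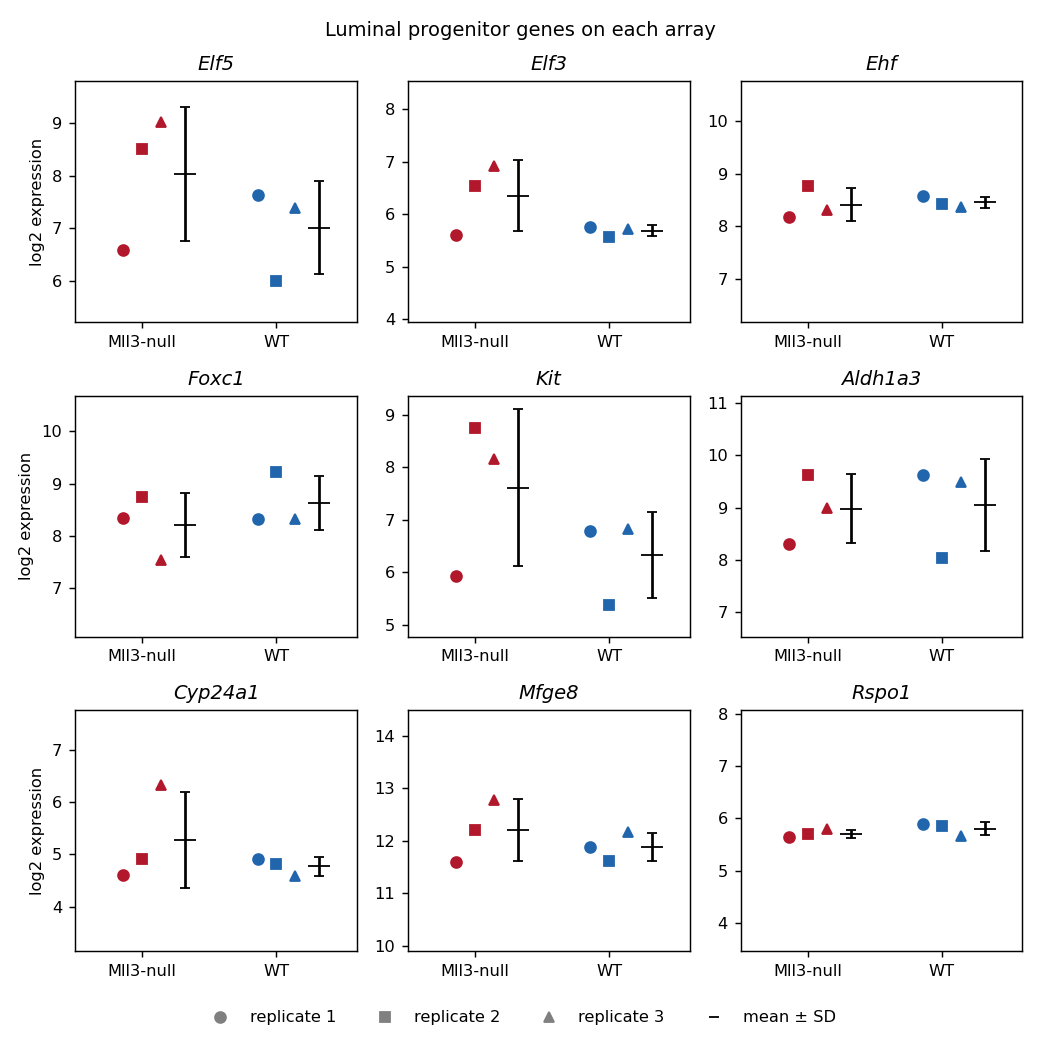
Log2 expression (y axis, 4.6 units tall in every panel) of the 9 genes on the 3 Mll3-null and 3 WT arrays. Points are arrays, with a symbol for each replicate number, and the black bars are the group mean ± SD. Elf5 and Kit spread over more than 3 units with overlapping groups, while Rspo1 stays within 0.25.

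The receptor gene Kit (probe set 17438272, chromosome 5) had the largest difference between group means and also the largest spread. It was at 5.92, 8.76 and 8.16 on the Mll3-null arrays, against 6.78, 5.38 and 6.83 on the WT arrays. Mll3-null replicates 2 and 3 were above all WT arrays, and Mll3-null replicate 1 was below both WT replicates 1 and 3. The means were 7.62 ± 1.5 in Mll3-null and 6.33 ± 0.82 in WT cells (SD, n = 3 each), a difference of 1.29 ± 0.78 log2 units (SE, 95% interval -0.58 to 3.15, adjusted p = 0.84 by limma). Between Mll3-null replicates 2 and 1 Kit differed by 2.84 log2 units, more than between the group means, and its standard deviation within groups was larger than that of 99.3% of all genes. The difference was 0.71 without Mll3-null replicate 2 and 0.81 without WT replicate 2. Elf5 and Kit are the 2 of the 9 genes with group means at least 2-fold apart, against 1.15% of all genes.

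Kitl, which encodes the ligand of KIT, varied over the same arrays. It was at 7.62, 8.39 and 9.27 on the Mll3-null arrays, against 8.14, 6.17 and 8.11 on the WT arrays, with a difference of 0.95 ± 0.63 (SE, adjusted p = 0.84 by limma). Like the receptor, the ligand was lowest in WT replicate 2, with Mll3-null replicate 1 the next lowest. Of 9 measured genes in the list of KIT ligand and signalling genes, the Mll3-null mean was the higher for 5 and the lower for 4, and the median difference was 0.04. By limma 0 passed the adjusted test and 0 had an unadjusted p under 0.05. The 2 with the smallest p were Spry4, a feedback inhibitor of receptor tyrosine kinase signalling, at 0.90 ± 0.43, and Dusp6, a phosphatase of ERK, at -0.30 ± 0.19 (log2 difference, SE).

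Of the enzymes, Aldh1a3 (probe set 17491941, chromosome 7), a retinaldehyde dehydrogenase that makes retinoic acid, was at 8.31, 9.63 and 9.0 on the Mll3-null arrays, against 9.62, 8.04 and 9.49 on the WT arrays. Mll3-null replicate 1 and WT replicate 2 were again the lowest arrays, but here Mll3-null replicate 2 was level with WT replicate 1. The groups overlapped almost fully, with a difference of -0.07 ± 0.50 (SE, 95% interval -1.28 to 1.14), whose sign turned without Mll3-null replicate 1 (0.27), without WT replicate 1 (0.22) or without WT replicate 3 (0.15). In the list of other retinoic acid genes the mean was higher for 3 of 13 and lower for 10, with a median of -0.15. By limma 0 passed the adjusted test and 1 had an unadjusted p under 0.05, against 4.93% of all genes. Stra6, a membrane transporter of retinol, was at 4.48, 4.80 and 4.22 on the Mll3-null arrays, against 6.38, 6.30 and 4.53 on the WT arrays. Its Mll3-null arrays and WT replicate 3 lay together, below the other WT arrays, and its difference was -1.24 ± 0.50 (SE, adjusted p = 0.84 by limma).

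Cyp24a1 (probe set 17394965, chromosome 2), the 24-hydroxylase that inactivates vitamin D and is itself induced by the vitamin D receptor, was high on 1 array. It was at 4.61, 4.91 and 6.32 on the Mll3-null arrays, against 4.92, 4.81 and 4.58 on the WT arrays. Mll3-null replicate 3 was alone above the others, which lay between 4.58 and 4.92. The difference of 0.51 ± 0.43 (SE, 95% interval -0.51 to 1.54) was -0.01 without that array. The receptor gene Vdr was also highest there, at 10.05, against 9.43 and 9.53 in Mll3-null replicates 1 and 2 and 9.34 to 9.62 in WT cells. Trpv6 and Cyp27b1, 2 other genes of the vitamin D list, were lowest on that array. Trpv6, a calcium channel gene induced by vitamin D and the one with the smallest p of its list, was at 7.89, 8.35 and 5.50 on the Mll3-null arrays, against 8.62, 7.55 and 8.69 on the WT arrays. Cyp27b1, which encodes the enzyme that activates vitamin D, stood at 4.11, 4.24 and 3.81 on the Mll3-null arrays, against 4.26, 4.25 and 4.0 on the WT arrays. Its 6 arrays spanned only 0.45 log2 units around a mean of 4.11, close to the limit of 4 set for dim genes. The mean deviation of the vitamin D list was -0.24 in Mll3-null replicate 3, its lowest. That value rests on Trpv6, at 5.50 there against its own 6-array mean of 7.77. In the list of vitamin D genes the mean was higher for 3 of 8 and lower for 5, with a median of -0.02, 0 past limma's adjusted test and 0 at an unadjusted p under 0.05.

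Of the secreted products, Mfge8 (probe set 17492314, chromosome 7), which binds phosphatidylserine on dying cells, was at 11.60, 12.21 and 12.78 on the Mll3-null arrays, against 11.88, 11.62 and 12.16 on the WT arrays. Mll3-null replicates 2 and 3 were the highest arrays, and Mll3-null replicate 1 was the lowest of all 6, just below WT replicate 2. The difference was 0.31 ± 0.30 (SE, 95% interval -0.41 to 1.03), and it was 0.02 without Mll3-null replicate 3.

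Rspo1 (probe set 17418403, chromosome 4), a ligand of LGR receptors that strengthens Wnt signalling, was at 5.64, 5.70 and 5.79 on the Mll3-null arrays, against 5.89, 5.85 and 5.66 on the WT arrays. It varied least of the 9: all arrays lay within 0.25 log2 units, and 83.9% of all genes spanned as much or more. The difference was -0.09 ± 0.10 (SE, 95% interval -0.33 to 0.15). Of 10 R-spondin partners, LGR receptors and Wnt readout genes, the mean was higher for 6 and lower for 4, with a median of 0.05. By limma 0 passed the adjusted test and 1 had an unadjusted p under 0.05, against 4.93% of all genes. Wnt4, a ligand of hormone-sensing cells, stood at -0.65 ± 0.21 and the receptor gene Lgr6 at -1.12 ± 0.49 (log2 difference, SE, adjusted p = 0.84 by limma for both). Rnf43, the next by p in the list, differed the other way, by 0.61 ± 0.38 (SE), with Mll3-null replicates 2 and 3 above every WT array.

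**Figure D2:**
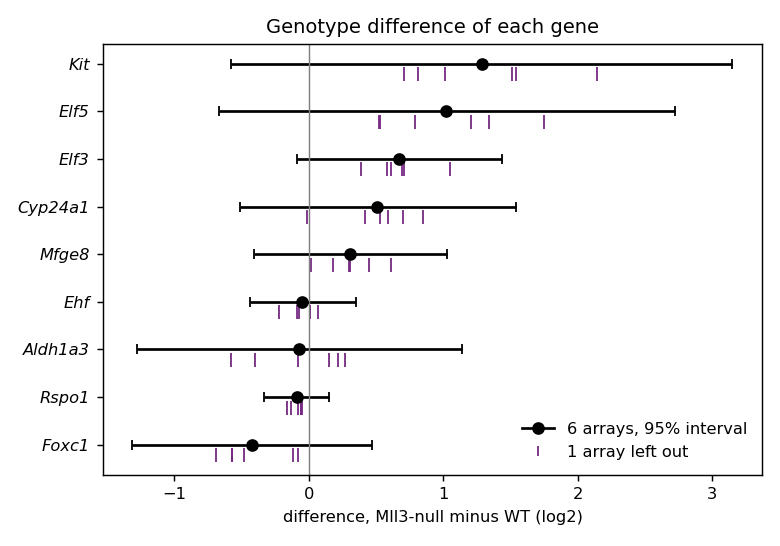
Difference between Mll3-null and WT means (x axis, log2) for each of the 9 genes (y axis, ordered by difference). Black points and bars are the estimate from 6 arrays with its 95% interval, and purple ticks are the estimates with 1 array left out. Every black interval includes 0, and the ticks of Aldh1a3, Ehf and Cyp24a1 lie on both sides of it.

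Several of the 9 genes followed a similar order of arrays, which was not the order of genotypes. The mean deviation of the 9 from their own 6-array means was -0.49, 0.51 and 0.51 on the Mll3-null arrays, against 0.02, -0.48 and -0.07 on the WT arrays. Mll3-null replicate 1 lay below both other Mll3-null arrays for 8 of the 9 genes, against 36.3% of all genes, with Foxc1 the exception. WT replicate 2 lay below both other WT arrays for 5 of the 9, against 33.9% of all genes. A span of at least 1 log2 unit over the 6 arrays was reached by 7 of the 9 genes and by 10.5% of all genes, the exceptions being Ehf and Rspo1.

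Without Mll3-null replicate 1 the groups no longer overlapped for 4 of the 9 genes, Elf5, Kit, Elf3 and Mfge8, all higher in Mll3-null cells, against 29.8% of all genes in either direction and 15.7% in that one. Their log2 differences were then 1.75 ± 0.50 for Elf5, 2.14 ± 0.48 for Kit, 1.05 ± 0.15 for Elf3 and 0.61 ± 0.23 for Mfge8 (SE). The same 4 had an unadjusted p under 0.05, against 12.4% of all genes, and none passed the adjusted test (adjusted p = 0.28, 0.22, 0.14 and 0.37 by limma in that order). These 4 already had Mll3-null replicates 2 and 3 above every WT array, so removing replicate 1 fixed their separation in advance. The array left out was the one where they were low, so these p-values are no support for a genotype difference. Without Mll3-null replicate 3, the array that stood apart, the differences were 0.53 for Elf5, 1.01 for Kit, 0.39 for Elf3 and 0.02 for Mfge8.

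Pairs of genes can be set side by side by the root mean square difference of their centred values (each array minus the gene's 6-array mean), in log2 units. Between Elf5 and Kit it was 0.38, although each spans over 3 units. The closest pair was Ehf and Rspo1, at 0.19, the members with the narrowest spans, and the next was Elf3 and Mfge8, at 0.24. Elf3 was 0.59 and Mfge8 0.69 from Elf5. Between Elf5 and its chromosomal neighbour Ehf it was 0.99, and between Elf5 and Foxc1 it was 1.43.

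By the same measure, the named genes outside the 9 most like Elf5 were the potassium channel gene Kcnk5, at 0.13, and Tln2, a talin of the cytoskeleton, at 0.16. Kcnk5 was at 5.86, 7.52 and 8.02 on the Mll3-null arrays, against 6.55, 5.22 and 6.44 on the WT arrays. Nearest to Kit were the phosphodiesterase gene Pde9a, at 0.29, and the cell adhesion gene Ceacam1, at 0.30. Aldh1a3 was most like Adamts3, at 0.15, and Wfdc18, a secreted protein gene also listed here among luminal progenitor genes, at 0.20. The nearest genes were Gng7 and Cpd for Elf3, Cers3 and Ptp4a3 for Foxc1, Sfxn5 and Apmap for Mfge8, and Hoxa5 and Cck for Cyp24a1, at 0.05 to 0.15. These matches were picked from 22180 genes over only 6 arrays and are given as a description.

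**Figure D3:**
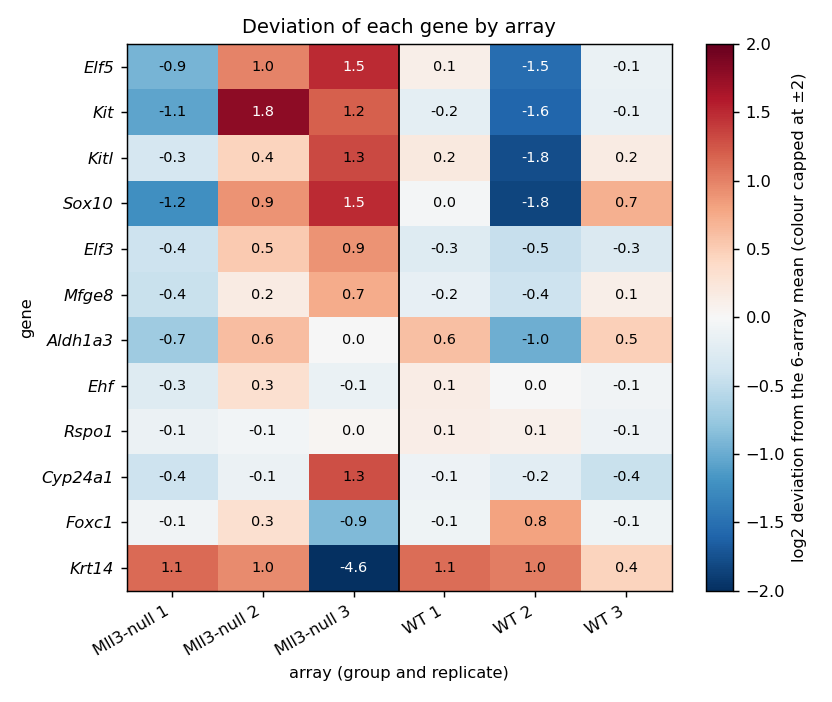
Deviation of each gene (rows) from its own 6-array mean on each array (columns, Mll3-null left and WT right of the line), in log2 units with the colour capped at 2 either way. Rows are the 9 luminal progenitor genes with Kitl, Sox10 and the basal keratin gene Krt14. Elf5, Kit, Kitl and Sox10 are lowest in WT replicate 2 and low in Mll3-null replicate 1, and Krt14 is low only in Mll3-null replicate 3.

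Other genes of the same cells were examined as lists. Of 22 measured further luminal and alveolar progenitor genes, the Mll3-null mean was higher for 14 and lower for 8, with a median of 0.04 and 0 past limma's adjusted test. At an unadjusted p under 0.05 there were 2 of the 22, against 4.93% of all genes. These were Ltf, which encodes lactoferrin, at -1.64 ± 0.61, and the integrin gene Itga2 at -1.09 ± 0.45 (log2 difference, SE). Plet1, a surface protein gene, differed the other way, by 0.90 ± 0.40. Itga2 was at 10.01, 8.52 and 8.31 on the Mll3-null arrays, against 10.39, 10.04 and 9.70 on the WT arrays. It was thus lowest on the arrays where Elf5 and Kit were highest, though both it and KIT mark luminal progenitors.

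Sox10, a transcription factor gene expressed in mammary progenitors, followed nearly the same order of arrays as Elf5. It was at 6.73, 8.85 and 9.45 on the Mll3-null arrays, against 7.91, 6.12 and 8.66 on the WT arrays, a difference of 0.78 ± 0.88 (SE). As for Elf5, Mll3-null replicate 3 was the highest array and WT replicate 2 the lowest. The mean deviation of the 22 genes was -0.30, 0.23 and 0.17 on the Mll3-null arrays, against 0.06, -0.40 and 0.24 on the WT arrays.

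Upstream of Elf5, the prolactin, Stat5, Gata3 and Notch list had 14 measured genes, 11 of them higher by mean in Mll3-null cells and 3 lower (median 0.23). By limma 0 passed the adjusted test and 0 had an unadjusted p under 0.05. Stat5a, a transcription factor activated by the prolactin receptor, was at 7.20, 7.78 and 8.42 on the Mll3-null arrays, against 7.52, 6.64 and 7.35 on the WT arrays. Its difference was 0.63 ± 0.35 (SE), with Mll3-null replicates 2 and 3 above all WT arrays. Tnfrsf11a, which encodes RANK, the receptor through which progesterone signals reach progenitors, was at 5.56, 7.52 and 7.97 on the Mll3-null arrays, against 5.92, 5.60 and 5.90 on the WT arrays. Here too Mll3-null replicate 1 lay with the WT arrays, and the difference was 1.21 ± 0.59 (SE, adjusted p = 0.84 by limma). Gata3, a factor of luminal fate, differed by 0.37 ± 0.24 (SE) and was highest in Mll3-null replicate 3, at 8.73, against 7.62 to 8.01 in WT cells.

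Of 9 other ETS genes, the Mll3-null mean was higher for 2 and lower for 7 (median -0.18). None passed the adjusted test, 3 of the 9 had groups that did not overlap, against 10.7% of all genes, and 2 had an unadjusted p under 0.05, against 4.93% of all genes. Ets1 was at 7.23, 7.24 and 7.01 on the Mll3-null arrays, against 7.65, 7.47 and 7.64 on the WT arrays, a difference of -0.43 ± 0.10 (SE, unadjusted p = 0.0054 and adjusted p = 0.84 by limma). All Mll3-null arrays of Ets1 lay below all WT arrays. Etv6, whose groups did not overlap either, differed by -0.31 ± 0.13, and Ets2, whose groups overlapped, by -0.36 ± 0.16 (SE, adjusted p = 0.84 by limma for both). The remaining gene without overlap was not among the 3 of smallest p.

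Markers of other cells were set beside these values. The basal list, 11 of 12 measured, had a mean deviation of 0.45, 0.62 and -1.89 on the Mll3-null arrays, against 0.39, 0.03 and 0.40 on the WT arrays. Its Mll3-null mean was higher for 3 genes and lower for 8, with 0 past limma's test, adjusted or unadjusted. The basal keratin gene Krt14 was at 12.43, 12.25 and 6.65 on the Mll3-null arrays, against 12.41, 12.32 and 11.74 on the WT arrays. Krt17 (4.80), Trp63 (5.02), Acta2 (5.47), Snai2 (5.99) and Id4 (6.81) were also lowest in Mll3-null replicate 3. On the other arrays these genes were at 7.05 or above. Myh11, at 5.08 there, was between 5.13 and 5.29 on the others. Cnn1, at 4.13 there, was between 4.10 and 5.55 on the others. Not all basal genes were low in Mll3-null replicate 3. Of the 3 with the smallest p in the list, Vim was lowest there, at 9.30. Oxtr was highest there, at 8.35, against 4.74 to 6.54 on the other arrays. Mylk was at 4.48 there, against 4.43 to 5.46 on the others. Elf5 and Kit were high both in Mll3-null replicate 3, where Krt14 was low, and in Mll3-null replicate 2, where Krt14 was at 12.25. Of the general luminal markers, Krt8 ran from 10.28 to 10.57 in Mll3-null and from 10.16 to 10.46 in WT cells, and Krt18 from 10.93 to 11.44 in Mll3-null and from 10.82 to 11.04 in WT cells. The keratin gene Krt19 ran from 8.22 to 9.36 in Mll3-null and from 7.64 to 9.56 in WT cells. Of the 9 general luminal markers the Mll3-null mean was higher for 4 and lower for 5, with a median of -0.02. By limma 0 passed the adjusted test and 2 had an unadjusted p under 0.05, against 4.93% of all genes. These were the mucin gene Muc1, at 2.11 ± 0.64, and the claudin gene Cldn4, at -1.58 ± 0.40 (log2 difference, SE, adjusted p = 0.84 by limma for both). They spanned 3.58 and 2.5 log2 units over the 6 arrays. The same 2 of the 9 had groups that did not overlap, against 10.7% of all genes.

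The hormone-sensing list, 6 of 8 measured, had a mean deviation of 0.23, -0.85 and 0.28 on the Mll3-null arrays, against 0.34, -0.20 and 0.20 on the WT arrays, so Mll3-null replicate 2 was low. By group means 3 genes were higher and 3 lower, with 0 past limma's test, adjusted or unadjusted. Foxa1, a pioneer factor of estrogen-receptor cells, was at 6.46 there and between 8.52 and 9.43 on the other arrays (a gene picked after its values were seen). The estrogen receptor gene Esr1 was at 6.46, 5.95 and 6.06 on the Mll3-null arrays, against 7.01, 6.25 and 6.47 on the WT arrays.

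Marker lists of fibroblasts (7 genes), immune cells (5), endothelial cells (4) and adipocytes (4) had mean deviations within 0.17 of 0 on all arrays, with 0 genes past limma's test in each, adjusted or unadjusted. The pan-leukocyte gene Ptprc was between 3.11 and 3.22 in Mll3-null and between 3.05 and 3.25 in WT cells, and the fibroblast gene Dcn was between 3.01 and 3.06 in Mll3-null and between 2.80 and 3.20 in WT cells. Pdgfra of the fibroblast list, the gene next to Kit on chromosome 5, varied more (a gene picked after its values were seen). It was at 4.55, 6.32 and 5.47 on the Mll3-null arrays, against 5.16, 5.14 and 5.25 on the WT arrays. The part of the basal and hormone-sensing shifts in the levels of the 9 genes was not tested.

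**Figure D4:**
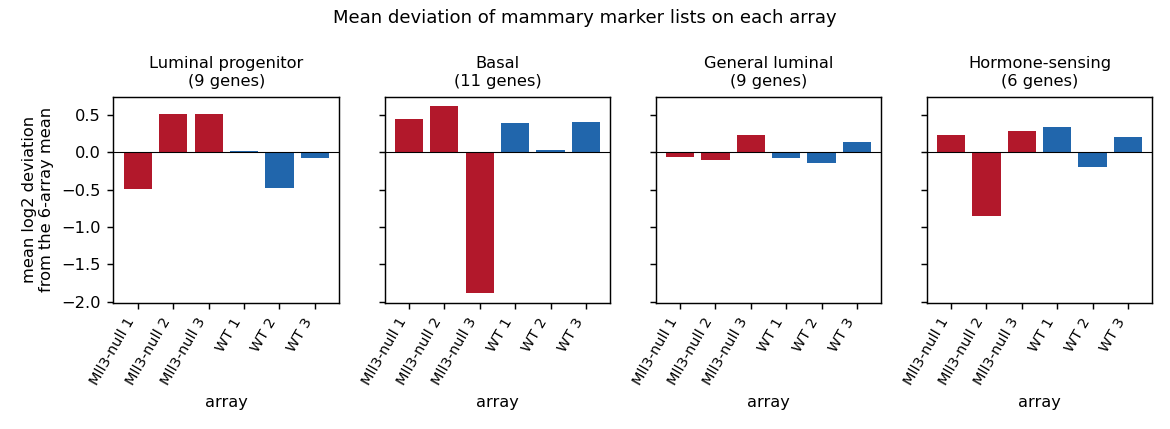
Mean log2 deviation from the 6-array mean (y axis) of 4 marker lists on each array (x axis), Mll3-null arrays in red on the left and WT arrays in blue on the right. The luminal progenitor bars are at 0.51 in Mll3-null replicates 2 and 3 and near -0.5 in Mll3-null replicate 1 and WT replicate 2, and the basal bar drops to -1.89 in Mll3-null replicate 3 alone.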

How the data were processed

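Gene expression was measured on 6 arrays, 3 of Mll3-null and 3 of WT cells, grouped by the sample titles. Total RNA was turned into biotinylated cRNA, per the labels' protocols, and Affymetrix Expression Console was the processing software, per the submitters' processing notes. No source used here gives its version, its normalization method or the build. Deposited values were read as log2 expression, since they lie between 1.72 and 13.56, and the quartiles of the arrays almost coincide (lower 3.27 to 3.29, upper 6.51 to 6.59). Such a common scale hides changes in total RNA per cell, and no detection values were used.

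Of 41345 probe sets, 23521 had 1 gene symbol in the platform annotation, 1814 several and 16010 none. The probe set with the highest mean stood for a gene, which left 22180 genes. Some genes of the lists were not analysed here. Mll3-null and WT arrays were compared by limma 3.58.1 under R 4.3.3 (two-sided, genotype only, Benjamini-Hochberg over all 22180 genes, threshold 0.05). The code was tested on simulated data. Differences are Mll3-null minus WT. The members, gene lists and tests were chosen with earlier results of these data known. The rule for named genes was the 9 members, Kmt2c, 10 neighbours in their pathways, up to 3 genes of smallest p in each list, and the 2 nearest patterns of each member spanning at least 1 log2 unit. Genes named otherwise are Wfdc18 for its place in both sets, Ptprc and Dcn as defining markers, the rest of the basal list, Krt19, Foxa1 and Pdgfra. Alternatives covered the spread model, array weights, dim genes (mean under 4), normalization, centring, probe sets, the replicate block, chromosome medians, the threshold (0.1) and leaving out each array.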

Additional observations from a re-analysis of the deposited data

How the results depend on the processing

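No alternative gave a gene past an adjusted p of 0.05: the count was 0 under all 16 settings, although 6 genes passed 0.1 without Mll3-null replicate 1, and the unadjusted count ran from 716 to 2742. Of 135 values of the 9 genes under alternatives, 126 kept their direction and their side of the threshold and 9 turned sign, in 3 genes. Aldh1a3 was 0.18 with array weights and ran from -0.58 to 0.27 when 1 array was left out. Ehf was 0.13 with array weights and ran from -0.22 to 0.07. Cyp24a1 ran from -0.01 to 0.85. The other 6 genes kept their sign throughout, although array weights moved Foxc1 to -0.05 from -0.42 and Kit to 1.80 from 1.29. The count of the 9 genes with non-overlapping groups ran from 0 to 4 with 1 array left out, and fewer arrays make separation easier, as the 17.9% to 29.8% of all genes show. With the replicate block the differences were 1.02 for Elf5 and 1.29 for Kit, with 0 genes past the threshold. Same-numbered arrays correlated in their deviations from group means at 0.03, 0.08 and 0.31, and differently numbered ones at -0.29 to 0.22. With so few arrays these values cannot decide whether the samples were paired. No label ties the replicate numbers to a shared animal, line or day. Groups of 3 arrays limit all of these values.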
